A study of Mus musculus with 3 samples.

Results

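The genes described here encode the aminoacyl-tRNA synthetases, 20 of the cytosolic set and 16 of the mitochondrial set, read in soleus muscle of mice that lack Mettl21c. They were chosen by name: a probe belonged to the group when its RefSeq accession mapped to one of 36 gene symbols or to an alias (Aars is also called Aars1, and Mars is listed as Mars1), and a symbol ending in 2 marked a mitochondrial enzyme. All 36 genes had at least 1 probe, 44 probes in all among 55681 on the array, and 20 of the genes, 13 cytosolic and 7 mitochondrial, were bright enough to be tested among 7424 genes or unnamed transcripts. The muscle is called SOL in the labels and read here as the soleus, a postural hindlimb muscle rich in slow fibres. Wild-type (WT) C57BL/6 males aged 8 weeks were compared with C57BL/6 males of that age whose genotype is given as Mettl21cLacZ/LacZ (KO), both on regular chow. On each of 3 arrays with 2 colours, Cy3 carried 1 WT sample and Cy5 1 KO sample, called biological replicates in the labels, which do not say whether a sample was 1 animal or a pool, nor in which cells the allele acts. The dyes were never exchanged, so a probe's preference for a dye and the genotype cannot be told apart.

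An aminoacyl-tRNA synthetase joins an amino acid to the tRNAs that decode it, which is the step where the genetic code is read chemically. Animal cells keep separate sets of these enzymes for the cytosol and for the mitochondrial matrix, all encoded in the nucleus, and Kars and Gars supply both places from 1 gene. Several cytosolic enzymes sit together in a multisynthetase complex held by scaffold proteins, and many cytosolic genes are switched on by the transcription factor ATF4 when amino acids run short or proteins misfold. Alanyl-tRNA synthetase, the product of Aars, has been described as a protein that METTL21C methylates in muscle, which is why Aars is also shown alone.

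ATF4 acts through an element of the form TGATGNAA, so the promoters were searched for those letters on both strands. RefSeq promoter windows of 300 bases (GRCm38.p6, 250 before to 50 after the listed start) were found for 27 of the 36 genes. The letters were present for 5 of 8 genes on a list of described ATF4 targets (Aars, Gars, Tars, Iars and Yars), for 0 of 5 other cytosolic genes and for 0 of 14 mitochondrial genes, against 3.97% of all 32851 windows. Eprs, Mars and Sars were the listed genes with a window and no match. No window was found for Cars, Hars, Lars, Nars, Rars, Vars, Wars, Hars2 and Pars2. These 8 listed genes are therefore not the 8 tested listed genes described below. The match in Iars and that in Yars lay after the start and are not printed. The other windows are shown as the members where the letters lie before the start, with the matching letters, read on the opposite strand, in capitals and with no base past the start.
Aars, chr8:111033704-111033763, + strand: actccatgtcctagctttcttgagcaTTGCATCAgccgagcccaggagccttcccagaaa
Gars, chr6:55037945-55038000, + strand: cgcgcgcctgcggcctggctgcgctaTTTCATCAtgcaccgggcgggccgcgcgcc
Tars, chr15:11399659-11399699, - strand: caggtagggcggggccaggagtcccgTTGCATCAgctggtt
Counted from the start, the matches began at -112 in Aars, -30 in Gars and -15 in Tars, and Aars had another match after the start. The table's gene entry for Aars begins farther upstream, so this window belongs to 1 of its transcript starts. A match of letters does not show that a factor binds there.

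The knockout could be read in the targeted transcript. Mettl21c had log2 ratios of KO over WT of -2.93, -1.96 and -2.46, a mean of -2.45 (SD 0.48, n = 3 arrays, limma adjusted p = 0.0175). In KO samples the probe exceeded the detection limit on 1 of 3 arrays, so the size of this ratio depends on the background and offset. It was -6.23 with the processed signals (limma adjusted p = 0.0680), and the call was also lost with the series matrix and with no filter. With detection required in both channels Mettl21c was not tested. Of 8 slow-muscle markers 6 were tested, and their summed normalised intensity ran from 14462 to 15706 in WT and from 18638 to 19451 in KO, so the ranges did not overlap. The sum follows its brightest probes, Myl3, Mb and Tnnt1: 5 of the 6 genes were above 0, while Atp2a2, the calcium pump of slow fibres, was at -0.74, -1.13 and -1.56 (mean -1.14, limma adjusted p = 0.0809). Myh7 and Tnni1 were counted as well above background on 2 arrays and were not tested. A probe whose spots are flagged as outliers on an array is not counted there, so this does not show that they were dim. For the 8 other marker lists (any skeletal muscle, macrophage, red blood cell, adipocyte, fibroblast and tendon, endothelial, Schwann cell and smooth muscle) the WT and KO ranges overlapped. Within arrays, all 6 tested macrophage markers had a mean below 0 (median -0.24), with Cd74 and C1qa below 0 on every array. All 3 tested red blood cell markers were above 0, with Hba-a1 at 0.77 (SD 0.34, limma adjusted p = 0.0883). Lyz2, Lep, Pdgfra and Tek reached the detection limit on 0 arrays in either channel. The part of fibre makeup, macrophages and blood in the ratios below was not tested, and in whole muscle fewer cells of a type and less RNA per cell cannot be told apart.

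No synthetase passed an adjusted p of 0.05 in the limma fit over all genes, where 3 genes, 0.0404% of those tested, did. At an unadjusted p under 0.05 4 members were lower, Qars, Vars, Sars2 and Sars, and 0 were higher, while 7.53% of all genes were lower and 5.9% higher by that rule. The mean ratio was below 0 for 17 of the 20 tested members and for 50.9% of all genes. That share was 64% for genes with a log2 intensity of 7 to 8, the brightness of 9 members. The median over members was -0.09, against -0.0027 over all genes, and the members ranged from -0.30 to 0.12. On every one of the 3 arrays 8 members were below 0 and 1 was above it, and 18.3% and 17.5% of all genes were. The members' medians were -0.07, -0.14 and -0.06 on arrays 1 to 3. The SD of these 3 medians was 0.05, and those of all genes were -0.01, -0.02 and 0.02.

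**Figure D1:**
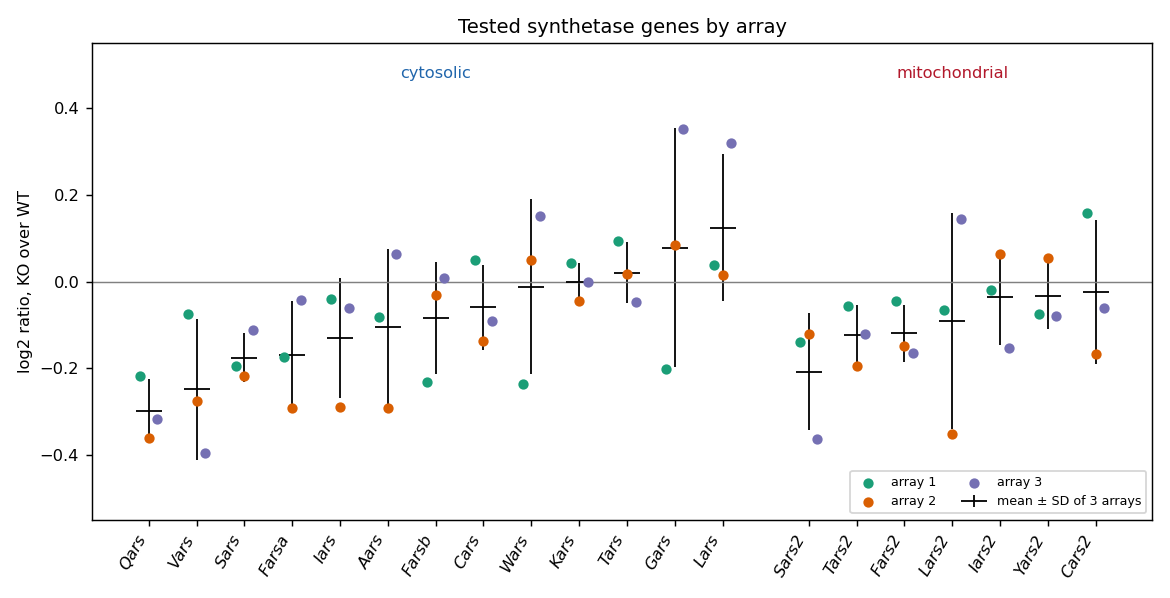
Log2 ratio of KO over WT (y axis) for the 13 cytosolic and 7 mitochondrial synthetase genes that were tested (x axis), with 1 point for each of the 3 arrays and a bar for the mean ± SD. Means run from -0.30 for Qars to 0.12 for Lars, and most bars reach or cross 0.

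Among the cytosolic enzymes that belong to the multisynthetase complex, Qars stood lowest. Qars encodes glutaminyl-tRNA synthetase. Its normalised log2 intensity was 7.50, 7.47 and 7.44 in the WT samples of arrays 1 to 3 and 7.28, 7.11 and 7.12 in the KO samples. Every KO sample lay below every WT sample, a separation that 3.91% of all genes showed downward and 4.31% upward. The mean log2 ratio was -0.30 (SD 0.07, n = 3, 95% interval -0.46 to -0.13, limma adjusted p = 0.150, unadjusted p = 0.0039), which is 1.23-fold lower in KO on the offset scale. Leaving out an array gave -0.34 to -0.27. Qars had 1 probe.

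The other tested complex members were Iars, Kars and Lars, the enzymes for isoleucine, lysine and leucine. Iars had ratios of -0.04, -0.29 and -0.06, with WT samples at 7.61 to 8.00 and KO samples at 7.57 to 7.82, so the groups overlapped. Its mean of -0.13 (SD 0.14) stood at -0.05 without array 2. Kars, which also makes the mitochondrial lysine enzyme, gave 0.04, -0.04 and -0.0010, a mean of -0.0012 (SD 0.04, 95% interval -0.16 to 0.16, limma adjusted p = 0.995). Its WT samples were at 9.19, 9.49 and 9.61 and its KO samples at 9.23, 9.45 and 9.60, close within each array. Lars was the one member above 0 on all arrays, at 0.04, 0.02 and 0.32, with a mean of 0.12 (SD 0.17) that was 0.03 without array 3 and was 0.28 with the processed signals. Dars, Eprs, Mars and Rars, for aspartate, glutamate with proline, methionine and arginine, were too dim to test. The median of the 4 tested complex genes was -0.07, beside -0.08 for the 9 tested free-standing ones, and the order of these medians turned when loess was left out.

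Of the free-standing cytosolic enzymes, Vars and Sars were the lowest. Vars, the valyl-tRNA synthetase, had ratios of -0.07, -0.28 and -0.40 and a mean of -0.25 (SD 0.16, 95% interval -0.45 to -0.05, limma adjusted p = 0.277). Its WT samples were at 7.43, 7.19 and 7.17 and its KO samples at 7.36, 6.91 and 6.77: the KO sample of array 1 lay above the WT samples of arrays 2 and 3, so the groups overlapped. Sars, the seryl-tRNA synthetase, was at -0.20, -0.22 and -0.11, with a mean of -0.18 (SD 0.06, 95% interval -0.34 to -0.01, limma adjusted p = 0.330). Its samples read 8.10, 8.28 and 8.06 in WT and 7.91, 8.06 and 7.95 in KO, which touch at 8.06.

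Phenylalanyl-tRNA synthetase is built from an alpha subunit, Farsa, and a beta subunit, Farsb. The brighter Farsa probe gave -0.17, -0.29 and -0.04 (mean -0.17, SD 0.12, limma adjusted p = 0.401), with KO samples at 7.08 to 7.22 below WT samples at 7.26 to 7.37. The dimmer Farsa probe, also tested, gave -0.04, 0.14 and -0.05, so the probes of this gene disagreed. Farsb was at -0.23, -0.03 and 0.0084, a mean of -0.08 (SD 0.13), and at -0.01 without array 1.

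Aars overlapped between the genotypes. Its log2 ratios were -0.08, -0.29 and 0.06, with a mean of -0.10 (SD 0.18, n = 3, 95% interval -0.31 to 0.10, limma adjusted p = 0.667). The WT samples were at 7.29, 7.46 and 6.14 and the KO samples at 7.21, 7.17 and 6.21. Both samples of array 3 lay about 1 unit below those of the other arrays, and this spread of 1.14 between arrays was larger than that of 93.5% of all genes. The mean was -0.0097 without array 2 and -0.19 without array 3. The median of the other 12 tested cytosolic genes was -0.07. Aars had 1 probe, and a transcript level says nothing of the enzyme's methylation.

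Cars, for cysteine, spread even more between arrays and not between genotypes. Its WT samples were at 9.73, 7.33 and 6.86 and its KO samples at 9.78, 7.19 and 6.77, a spread of 2.95 that exceeded that of 99.1% of all genes. The ratios of 0.05, -0.14 and -0.09 nonetheless lay close together (mean -0.06, SD 0.10). Both channels of an array are read from the same spot, and the cause of this spread was not tested.

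**Figure D2:**
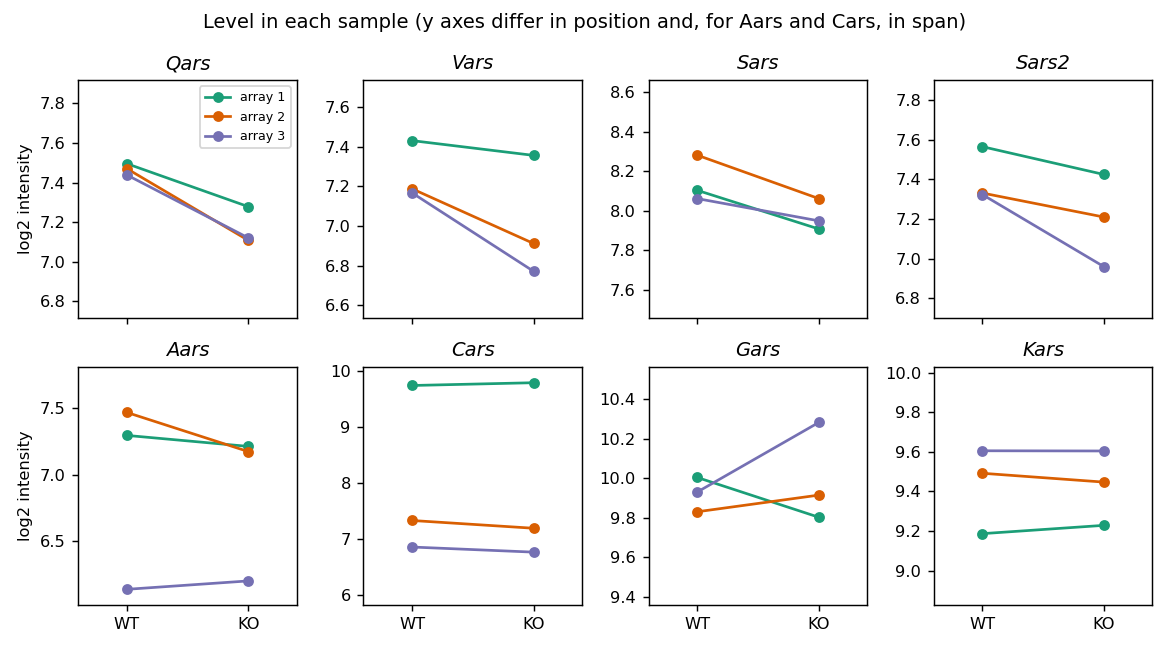
Normalised log2 intensity (y axis) in the WT and KO samples (x axis) for 8 synthetase genes, with a line joining the 2 samples of each array. Every Qars line ends lower in KO and its genotypes do not overlap, and Kars lines are nearly flat. The Cars lines are set apart by array, and the Aars line of array 3 lies below those of arrays 1 and 2, which cross.

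Gars, for glycine and active in both compartments, went in opposite directions between arrays. Its ratios were -0.20, 0.08 and 0.35, with a mean of 0.08 (SD 0.28, 95% interval -0.18 to 0.34), and without array 3 the mean was -0.06. Its samples read from 9.80 to 10.3, and the genotypes overlapped. Wars, for tryptophan, ran in the same order, at -0.24, 0.05 and 0.15 (mean -0.01, SD 0.20). Tars, for threonine, was near the detection limit, with 2 of 3 WT samples well above background, and its ratios were 0.09, 0.02 and -0.05 (mean 0.02, SD 0.07). Tars was thus tested through KO alone, which favours a ratio above 0.

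Of the mitochondrial enzymes, 7 were tested, and every one had a mean below 0. They ranged from -0.21 to -0.02, with a median of -0.09, and with loess replaced by centring on the tested probes that median was 0.04. Sars2, the serine enzyme, was at -0.14, -0.12 and -0.36 (mean -0.21, SD 0.13, limma adjusted p = 0.316). Its WT samples were at 7.57, 7.33 and 7.32 and its KO samples at 7.42, 7.21 and 6.96, which overlapped, and the processed signals gave a mean of -0.06. Tars2 (-0.06, -0.20 and -0.12) and Fars2 (-0.05, -0.15 and -0.17) were also below 0 on all arrays, with means of -0.12 and -0.12, and stood at -0.56 and -0.29 with the processed signals. Lars2, the leucine enzyme, was at -0.07, -0.35 and 0.14 (mean -0.09, SD 0.25) and turned to 0.04 without array 2. Cars2, Iars2 and Yars2 had means of -0.02, -0.04 and -0.03 with mixed signs. With the processed signals, which carry no added offset, Yars2 stood at -0.79 (limma adjusted p = 0.404) and Cars2 at -0.10. Iars2 was well above background in 2 of 3 WT samples and Yars2 in 1 of 3 KO samples. Yars2 was thus tested through WT alone, which favours a ratio below 0, and Iars2 through KO alone, which favours one above 0. With detection in both channels 5 mitochondrial genes remained, with a median of -0.12.

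The cytosolic and mitochondrial sets did not separate. Their medians were -0.08, -0.14 and -0.04 for cytosolic and -0.06, -0.15 and -0.12 for mitochondrial genes on arrays 1 to 3. Without array 2 the cytosolic median was -0.04, and without array 3 it was -0.13. The difference, cytosolic minus mitochondrial, was -0.03, 0.01 and 0.08 (SD 0.05) and 0.0064 between the medians of the means. Its sign varied with the processing, negative in 6 of 18 settings, from -0.31 to 0.10. For amino acids with both enzymes tested, the largest difference was between Lars and Lars2, at 0.10, 0.37 and 0.18 on the 3 arrays (mean 0.21, SD 0.14). Tars exceeded Tars2 by 0.15, 0.21 and 0.07 (mean 0.14, SD 0.07), but Tars was tested through KO alone, which favours a difference above 0. For Cars, Farsa, Farsb, Iars and Sars against Cars2, Fars2, Iars2 and Sars2 the difference changed sign between arrays. No test was made of these differences.

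**Figure D3:**
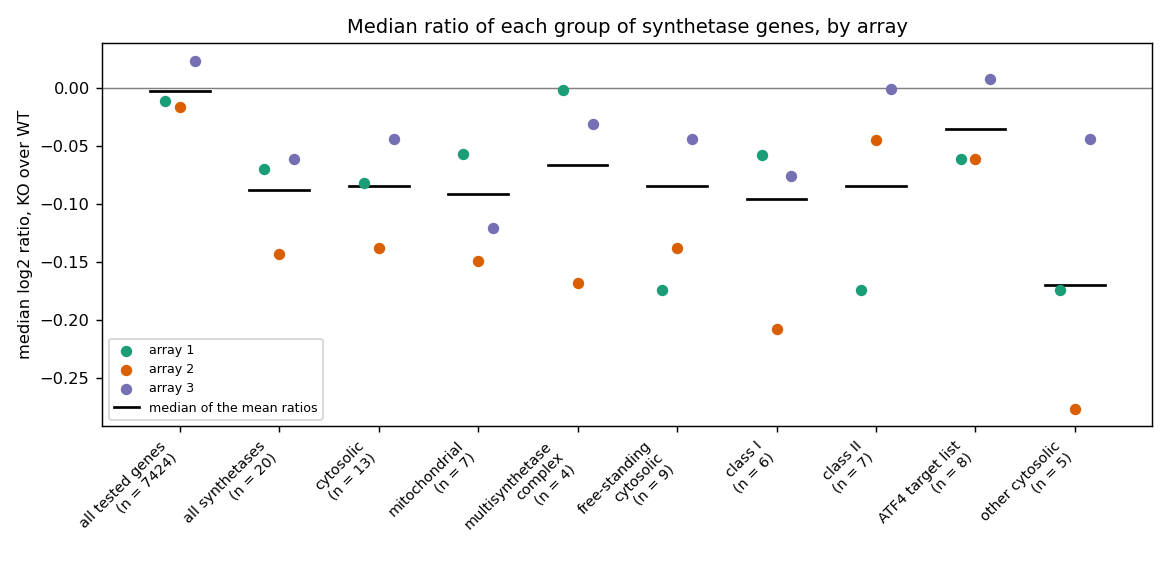
Median log2 ratio of KO over WT (y axis) on each array for all tested genes and for groups of synthetases (x axis, with the number of genes), with a line at the median of the mean ratios. All synthetases lie at -0.14 to -0.06 and all genes at -0.02 to 0.02, while the cytosolic and mitochondrial points overlap.

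The cytosolic genes can also be split by enzyme class and by ATF4. Class I enzymes, with a Rossmann fold, had a median of -0.10 (6 genes) and class II enzymes one of -0.08 (7 genes). That difference of -0.01 was -0.12 without array 1, -0.04 without array 2, 0.0017 without array 3 and -0.13 with the processed signals. The 8 tested genes on the ATF4 list (Aars, Cars, Gars, Iars, Lars, Sars, Tars and Wars) had a median of -0.04, with 5 below 0, and the 5 others (Farsa, Farsb, Kars, Qars and Vars) one of -0.17, with all 5 below 0. The ATF4 group lay above the others by 0.13, and by 0.05 to 0.17 over the 18 settings, all drawn from the same 3 arrays. By array its medians were -0.06, -0.06 and 0.0075, and those of the others -0.17, -0.28 and -0.04. The gap was smallest, 0.049, with the tested probes of a gene averaged, and Kars, among the others, was at only -0.0012. With detection in both channels, which leaves out Tars, the gap was 0.11. Between 7 and 8 in log2 intensity, 64% of all genes were below 0. Farsa, Farsb, Qars and Vars of the others lay there, and Cars, Iars and Lars of the list. The part of brightness in the gap was not tested. The split is a description of 13 genes and was not tested.

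**Figure D4:**
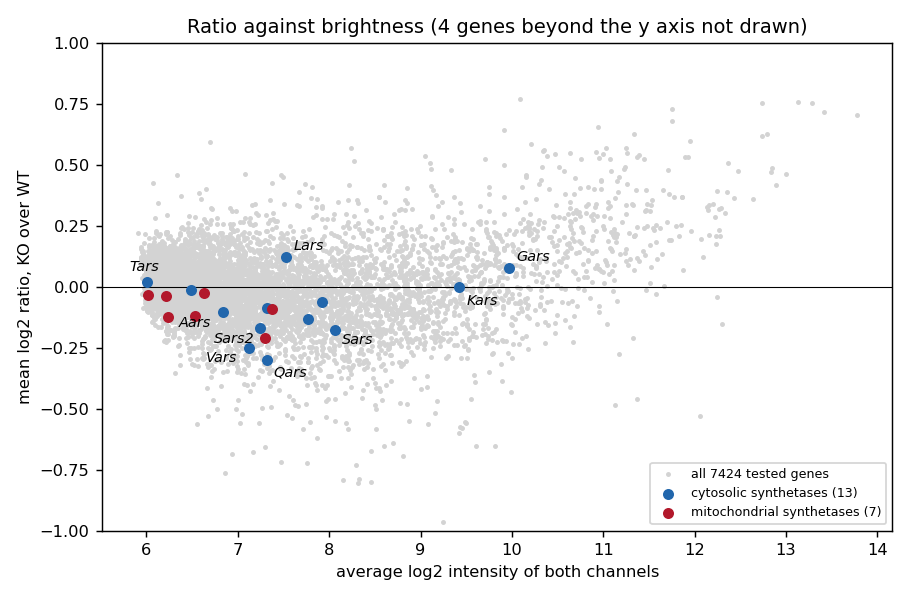
Mean log2 ratio of KO over WT (y axis) against the average log2 intensity of both channels (x axis) for all 7424 tested genes (grey) and for the cytosolic and mitochondrial synthetases. Nearly all synthetases lie at intensities below 8.1, and Kars and Gars lie at 9.43 and 9.97. The grey points between 7 and 8 lie more often below 0 (64%) than those between 6 and 7 (47.1%).

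Brightness was compared because dim probes have shrunken ratios. Apart from Kars and Gars the members lay between 6.0 and 8.1 on the log2 intensity scale. Of the 6933 genes within the members' range of intensity, 53.2% were below 0, with a median of -0.0086. Within that range the ratios of all tested genes varied with brightness after loess. Between 7 and 8 on this scale, where 9 members lie, 64% of all 1597 genes were below 0 with a median of -0.05, and 8 of the 9 members were, with a median of -0.13. Between 6 and 7, 47.1% of 3992 genes were below 0 with a median of 0.0058, and 7 of 8 members were, with a median of -0.03. The part of brightness in the members' count below 0 was not tested. Member ratios correlated weakly between arrays (Pearson's r over 20 genes 0.10 for array 1 with 2, 0.0069 for array 1 with 3, 0.40 for array 2 with 3), where all genes gave 0.35, 0.21 and 0.33. These points share arrays and dyes.

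No tested gene for complex scaffolds, other aminoacylation, editing, elongation or amino acid sensing passed either. Of the partner lists, only the amino acid response genes, described below, held a gene that passed. Of the complex scaffolds, Eef1e1 was at 0.11 (SD 0.14) and Aimp2 at -0.02 (SD 0.11). Aimp1 was counted as well above background on 2 arrays, a count that leaves out flagged spots, and was not tested. Qrsl1, a subunit of the amidotransferase that makes glutaminyl-tRNA in mitochondria in place of a glutamine enzyme, was at -0.17, -0.35 and -0.12 (mean -0.21, SD 0.12, limma adjusted p = 0.306), and its partner Gatb at 0.04 (SD 0.23). Tarsl2, a cytosolic relative of Tars, was at -0.05 (SD 0.18). Of 4 editing genes, all tested, Aarsd1, which clears serine wrongly placed on alanine tRNA, was at -0.17 (SD 0.10, limma adjusted p = 0.365) and Dtd2 at 0.07 (SD 0.08). Elongation factors tested were Eef1d at 0.17 (SD 0.26), Eef1g at -0.08 (SD 0.24), Gfm1 at 0.04 (SD 0.16) and Gfm2 at 0.0043 (SD 0.17). Gcn1l1, which helps the kinase GCN2 sense uncharged tRNA, was at -0.08 (SD 0.07), and Ppp1r15a, a regulatory subunit of the eIF2 alpha phosphatase, at 0.02 (SD 0.18).

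Of 26 amino acid response genes 12 were tested, with 7 below and 5 above 0 and a median of -0.07. Chac1, which degrades glutathione, was the 1 that passed: it fell by 0.96 (SD 0.20, limma adjusted p = 0.0481), at -0.76, -0.97 and -1.15. It kept a negative sign in all 17 alternatives and lost the call in 5, the processed signals, the series matrix, no filter, detection in both channels and averaged probes, with adjusted p up to 0.404. Ddit3, the CHOP transcription factor, was at -0.17, -0.56 and 0.08 (mean -0.21, SD 0.32, limma adjusted p = 0.509). Atf4 itself and Asns were not tested.

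For 16 members no ratio is given, since no probe was well above background on all arrays in a channel. Neither channel passed on any array for 7 of them, the cytosolic Dars, Eprs, Rars and Yars and the mitochondrial Aars2, Ears2 and Mars2. The other 9 passed on some: Pars2 in 2 samples of each genotype, Rars2 in 2 WT and 0 KO, Hars in 0 WT and 2 KO, Nars in 2 WT and 1 KO, Hars2 in 1 WT and 2 KO, Mars, Nars2 and Vars2 in 1 of each, and Wars2 in 1 WT. On array 3 alone Nars2 read 7.40 in WT and 7.10 in KO, and Vars2 read 7.67 and 7.47. A probe below the detection limit does not show that its transcript was absent. Among the tested genes Wars, Cars2, Iars2 and Tars2 each had another probe that reached detection on 0 arrays.

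**Figure D5:**
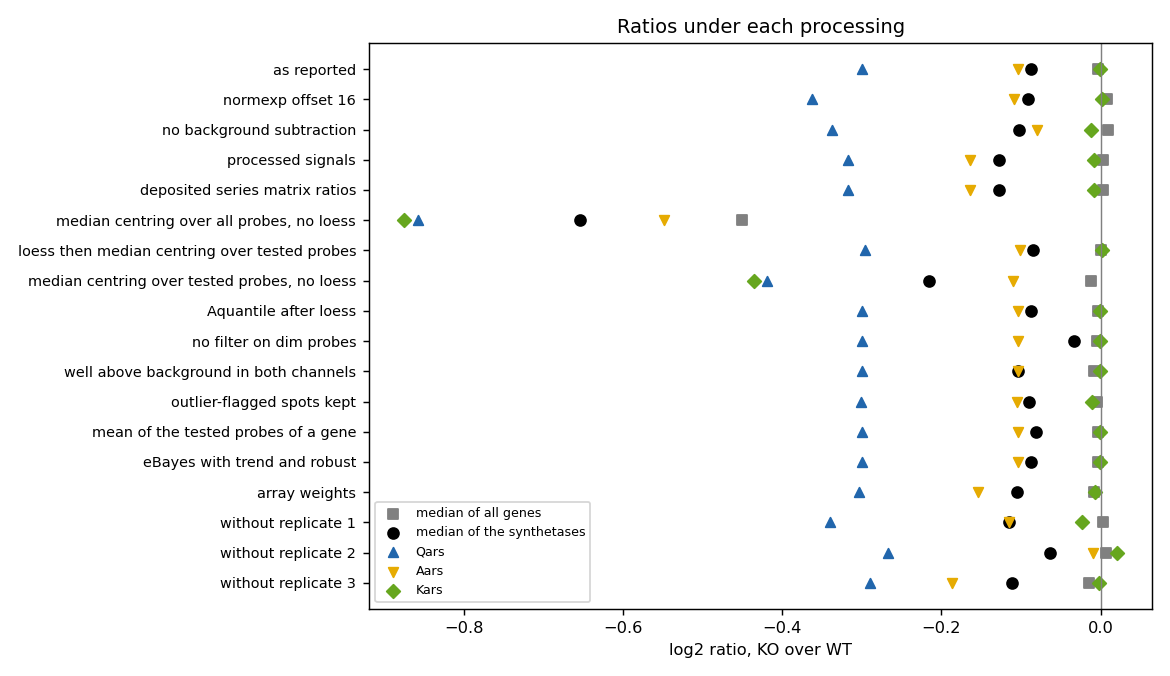
Log2 ratio of KO over WT (x axis) under the reported processing and 17 alternatives (y axis) for the median of all genes, the median of the tested synthetases, Qars, Aars and Kars. The median of the synthetases lies below that of all genes in every setting, and Kars moves to -0.87 and -0.44 where loess was left out.

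The synthetase median was below 0, and below the median of all genes, in each of the 18 settings. In those that kept the same filter 14 to 20 of the 20 tested members had a negative mean. All 20 had one with centring on all probes without loess, where 99.2% of all genes did. The count of 14 came with centring on tested probes without loess (51.4% of all genes) and without array 2 (48.0%). With detection in both channels 15 of 17 members had a negative mean (52.9% of all genes), and with no filter 25 of 36 (53.7%). Members passed the threshold in the 2 settings that centred the median signals in place of loess, 17 where the median of all probes was set to 0 (all genes then had a median of -0.45) and 9, 8 lower and Tars higher, where that of the tested probes was (-0.01). There 4917 and 2658 genes, 66.2% and 35.8% of those tested, were called in all.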

How the data were processed

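Per the file headers, the deposited scanner files come from version 12.0.3.1 of Feature Extraction (version 11.5 in the submitters' processing notes). The authors deposited, for each array, the scanner intensity of every spot and its local background in both channels, a processed signal and a log10 ratio of KO over WT. The deposited series matrix equals that log10 ratio (to within 0.005 on array 3), with column medians of 0.

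Median intensity was corrected with normexp (offset 50, which shrinks ratios of dim probes), normalised by loess within each array and fitted with limma 3.58.1 in R 4.3.3. Outlier-flagged spots were left out. A tested probe had a value on 3 arrays and, in 1 channel or both, exceeded background on each of them (8391 probes). A gene was its brightest tested probe, named through RefSeq accessions (GRCm38.p6). P-values are two-sided with Benjamini-Hochberg adjustment over 7424 genes. Sample levels are loess and Aquantile values. The steps were run on simulated data whose planted changes exceeded every synthetase ratio and which held no dye effect on the signal. That run does not cover changes as small as those of the synthetases. Between 20.4% and 23.6% of spots were well above background in a channel, and the number of arrays limits precision. All synthetases are named, and of each partner list the 2 tested genes of smallest p and any past the threshold. Members and lists were chosen with earlier results of these data known.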

Additional observations from a re-analysis of the deposited data

How the results depend on the processing

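The number of tested synthetases past the threshold stayed at 0 in 15 of 17 alternatives and was 17 and 9 without loess (median signals centred on all probes and on the tested probes). The alternatives for the counts of members below 0, in the mean or on all arrays, and for Chac1 and Mettl21c were chosen after seeing the data. Genes called in all were 25 with an offset of 16, 5 without background subtraction, 0 with the processed signals, 0 with the series matrix, 4917 and 2658 without loess, 8 after loess with centring on tested probes, 0 with no filter, 0 with detection in both channels, 1 with probes averaged, 85 with trended robust moderation, 62 with array weights, and 9 to 158 with an array left out (9, 15 and 158 without arrays 1, 2 and 3), against 3. Where limma called 0 genes, an unadjusted p under 0.05 was reached by 2 of 20 synthetases with the processed signals (10.8% of all genes) and 2 with the matrix (10.9%), by 8 of 36 with no filter (6.81%) and by 4 of 17 with detection in both channels (14.2%).

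The cytosolic median was -0.16 with the processed signals and -0.16 with the matrix, -0.71 and -0.27 without loess, -0.013 with no filter (20 genes), and -0.13 to -0.042 with an array left out. The mitochondrial median was -0.17 without background subtraction, -0.40 and 0.036 without loess and -0.040 with no filter (16 genes). Their difference was 0.10 without background subtraction, -0.059 with the processed signals and with the matrix, and -0.31 in both settings without loess. Centred on all probes without loess, 19 members and 85.2% of all genes were lower on all arrays, 66.2% of all genes were called, and Aars was at -0.55 (limma adjusted p = 0.0186).

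The sign of some members turned. With an offset of 16 Kars was at 0.0015 and Wars at 0.012. Iars2 was at 0.057 with the processed signals and with the matrix. Kars was at 0.0017 after loess with centring on tested probes. Without loess, centred on all probes, Gars was at -0.86 and Lars at -0.48, both called lower there, and Tars was at -0.10. Centred on tested probes, Gars was at -0.42 and called lower, Lars at -0.040, Wars at 0.092, Cars2 at 0.036, Iars2 at 0.16, Tars2 at 0.092 and Yars2 at 0.28. With an array left out the ranges that crossed 0 were -0.016 to 0.055 for Tars, -0.093 to 0.10 for Wars, -0.023 to 0.020 for Kars, -0.11 to 0.048 for Cars2, -0.21 to 0.039 for Lars2, -0.058 to 0.22 for Gars and -0.086 to 0.023 for Iars2. The cause of these changes was not tested.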
